A study of Homo sapiens with 4 samples.

Results

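The genes described here are 32 of the 35 listed hypoxia response and glycolysis genes, out of 18132 genes tested. Members were taken by gene symbol from a list of 17 glycolytic enzymes and 18 other genes of the hypoxia response. A member needed a probe set annotated to that symbol alone, and the brightest such set, by its mean over all 4 arrays, stood for the gene. All 17 enzymes and 15 of the 18 others were found, while CA9, SLC16A3 and SLC2A3 were not analysed here, the probe sets of SLC2A3 being annotated to SLC2A14 as well. The cells were U87MG, an established human glioma line, transfected with the empty vector PCDNA (control, 2 arrays) or with the vector PC-490, which overexpresses the microRNA miR-490 (2 arrays), and harvested after 48 h. Total RNA, 100 ng per array, was measured on PrimeView expression arrays. Both groups received a plasmid, and the labels name no oxygen treatment. The miR-490 level was not analysed here. Nothing in the labels tells separate cultures from repeat preparations, so the p-values reflect the spread of these arrays alone, and that spread may be technical. In RNA from whole cultures, fewer cells with a transcript and less transcript per cell cannot be told apart.

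Cells sense low oxygen through the hypoxia-inducible factors (HIF). With oxygen present, the prolyl hydroxylases EGLN1 and EGLN3 mark HIF1A protein for destruction; without it the protein pairs with ARNT and switches on genes for glucose uptake, glycolysis, vessel growth and mitophagy. Glycolysis turns glucose into pyruvate, and tumour cells, glioma cells included, often run it and release lactate even with oxygen present. A microRNA lowers messenger RNAs that pair with its seed, bases 2 to 8. The agent of this comparison has 2 mature arms, given by RefSeq on GRCh38.p14 chromosome 7, plus strand, within the span of the gene CHRM2, at chr7:136903242-136903263 for the 3p arm and chr7:136903205-136903224 for the 5p arm. The labels name no arm. Both are shown, with the seed in capitals, since the seed defines which messages each arm can pair with:
hsa-miR-490-3p: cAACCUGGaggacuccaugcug
hsa-miR-490-5p: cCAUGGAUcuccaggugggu

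Many members hold the letters of the HIF site in their promoters. The sequence was not used to choose the genes, but the list names hypoxia response genes, so the letters are no independent finding. HIF binds DNA at the core ACGTG or GCGTG, which was searched on both strands in 300 bases per gene (250 before to 50 after a RefSeq start, GRCh38.p14). Only 1 window per gene was kept, the first listed, and no other start of a gene was searched. Overlapping matches counted once, and ACGTG is also part of the E-box CACGTG, the site of MYC and MXI1. Of the 32 members 30 had such a sequence. ACGTG was present in 13 of these 30 promoters (43.3%), against 21.6% of 27305 promoters in the table and 23.9% of the 14425 that belong to tested genes. GCGTG was present in 13 as well (43.3%, against 36.3% and 44.5%), and CACGTG in 5 (16.7%, against 7.43% and 8.82%). At least 1 of the cores ACGTG and GCGTG was present in 21 (70.0%, against 48.4% and 56.5%). The member promoters also had more G and C, with a median of 69.7% against 58.3% and 63.0%, and the part of this in the shares was not tested. A match is a description and not a shown binding site. Promoters of 3 members are printed 5′ to 3′ on the gene's strand, with ACGTG and GCGTG, read on either strand, in capitals. ANKRD37 is shown for the largest difference between the groups, ALDOC as an enzyme whose probe sets all differed in the same direction, and LDHA, with 3 ACGTG matches and 1 GCGTG match, as one whose difference was near 0. They lie at chr4:185396591-185396890 (ANKRD37, plus strand), chr17:28576846-28577145 (ALDOC, minus strand) and chr11:18394313-18394612 (LDHA, plus strand).
ANKRD37: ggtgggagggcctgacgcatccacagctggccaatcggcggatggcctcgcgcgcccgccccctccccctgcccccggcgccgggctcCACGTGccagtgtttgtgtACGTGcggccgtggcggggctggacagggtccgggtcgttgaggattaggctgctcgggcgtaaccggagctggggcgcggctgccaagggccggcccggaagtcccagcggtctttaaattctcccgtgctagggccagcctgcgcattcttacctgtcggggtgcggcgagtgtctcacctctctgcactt
ALDOC: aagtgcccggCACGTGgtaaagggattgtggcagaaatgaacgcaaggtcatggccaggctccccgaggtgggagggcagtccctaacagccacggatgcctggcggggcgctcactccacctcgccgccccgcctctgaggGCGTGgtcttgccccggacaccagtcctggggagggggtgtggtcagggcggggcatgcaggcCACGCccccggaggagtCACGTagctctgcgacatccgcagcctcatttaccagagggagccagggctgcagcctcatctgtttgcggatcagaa
LDHA: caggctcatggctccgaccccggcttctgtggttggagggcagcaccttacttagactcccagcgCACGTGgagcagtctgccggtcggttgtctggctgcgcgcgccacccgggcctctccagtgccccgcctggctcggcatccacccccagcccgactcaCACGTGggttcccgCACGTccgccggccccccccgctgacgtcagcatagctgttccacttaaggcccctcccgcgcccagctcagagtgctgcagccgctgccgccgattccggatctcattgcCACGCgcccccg

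The arrays were alike in scale, with medians over all probe sets of 5.15 to 5.17 (log2) and values from 1.72 to 14.24. Of 10 fixed markers of glioma and mesenchymal glioma cells, 6 lay above the array median, VIM at a mean of 13.9 and CD44 at 12.0 among them and GFAP close to it at 5.71, while NES (4.15), S100B (3.38), SOX2 (4.87) and OLIG2 (3.68) lay below. Markers of other cells were mostly below it, with 0 of 5 leukocyte, 1 of 6 epithelial and 2 of 5 endothelial genes above, whereas 4 of 5 neuronal genes, including TUBB3 at 10.01, were above. The position against the median describes brightness only and is no detection call.

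The hypoxia and glycolysis genes were bright in both groups, and none of them passed the test between the groups. Of the 32 members, 31 lay above the array median, by 1.79 to 8.73 on the log2 scale, and only EGLN3 lay below it. Over all genes 10211 of 18132 lay above the same line, since each gene stands at its brightest probe set while the median is that of all probe sets. In limma, adjusted by Benjamini-Hochberg over all 18132 genes, 0 members had an adjusted p under 0.05, the smallest being 0.785, and neither did any other gene (0%). At an unadjusted p under 0.05 (limma) there were 0 of 32 members, where 6.19% of all genes were at that level, 3.31% higher and 2.88% lower with miR-490. Of the 10211 genes above the array median, where nearly all members lie, 382 were at that level. With an intensity trend in the same tool, 3 of 32 members were at that level (ALDOC, PFKFB4 and ANKRD37), where 1096 of 18132 genes were. None of the 3 passed the adjusted threshold. The differences were small, from -0.125 for P4HA1 to 0.17 for ANKRD37 (log2), or 0.917 to 1.13 times the control level, and 29 of 32 members differed by less than 1.1-fold. The intervals show what size of change these arrays leave room for. The 95% interval of the difference lay within 1.3-fold either way in 30 of 32 members (all but EGLN3 and ANKRD37) and within 1.5-fold in all 32. Over all genes the same held for 13915 and 17406 of 18132, and among genes above the array median for 9190 and 10126 of 10211. These intervals are per gene and not adjusted for the number of genes.

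**Figure D1:**
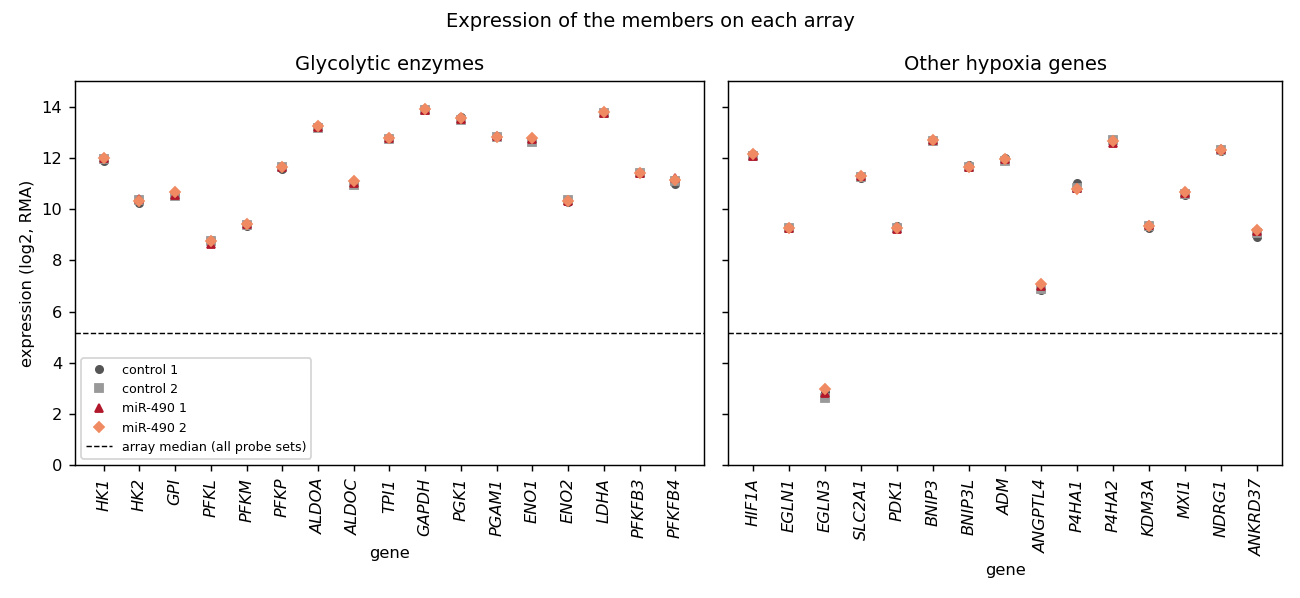
Expression (log2, RMA) of each measured member on each of the 4 arrays, glycolytic enzymes on the left and other hypoxia genes on the right, with the median of all probe sets as a dashed line. The 4 points of a gene lie nearly on each other, and only EGLN3 sits below the line.

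The miR-490 means were above the control means in 21 members, below in 9 and equal in 2. Over all genes, 50.1% were above and 47.3% below. Among the 10211 genes above the array median, where nearly all members lie, 4900 were above and 5007 below. The groups did not overlap in 18 of 32 members, 15 of them higher with miR-490 and 3 lower, where 32.6% of all genes did not overlap (16.5% higher and 16.1% lower). Of those 10211 genes, 1602 were higher without overlap and 1875 lower. The difference between the means was larger than both gaps between replicates in 10 of 32 members, where 23.2% of all genes met that condition. Among genes without overlap, however, it was met by 10 of 18 members and by 4214 of the 5905 such genes in all, a smaller share of the members. Members share the same arrays, and these counts carry no test. The median log2 difference was 0.035 for the 17 enzymes and 0.03 for the 15 other genes. It was 0.005 over all genes and 0 among those above the array median. The enzymes' median level relative to each gene's own mean was -0.01 on both control arrays and 0.0125 and 0.0225 on the miR-490 arrays; that of the other genes was -0.0125 and -0.01 against 0.0075 and 0.0125. Over all genes these medians were -0.015 and 0.0125 on the control arrays and 0.0025 and 0 with miR-490. In the members the 2 control medians thus lay closer together than over all genes, and the cause was not tested. On this scale 1 step of the deposited values is 0.01, so the lists differ by a few steps. With all probe sets of a gene averaged, the median of the other hypoxia genes was 0.01, and with quantile normalization it was 0.0456.

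**Figure D2:**
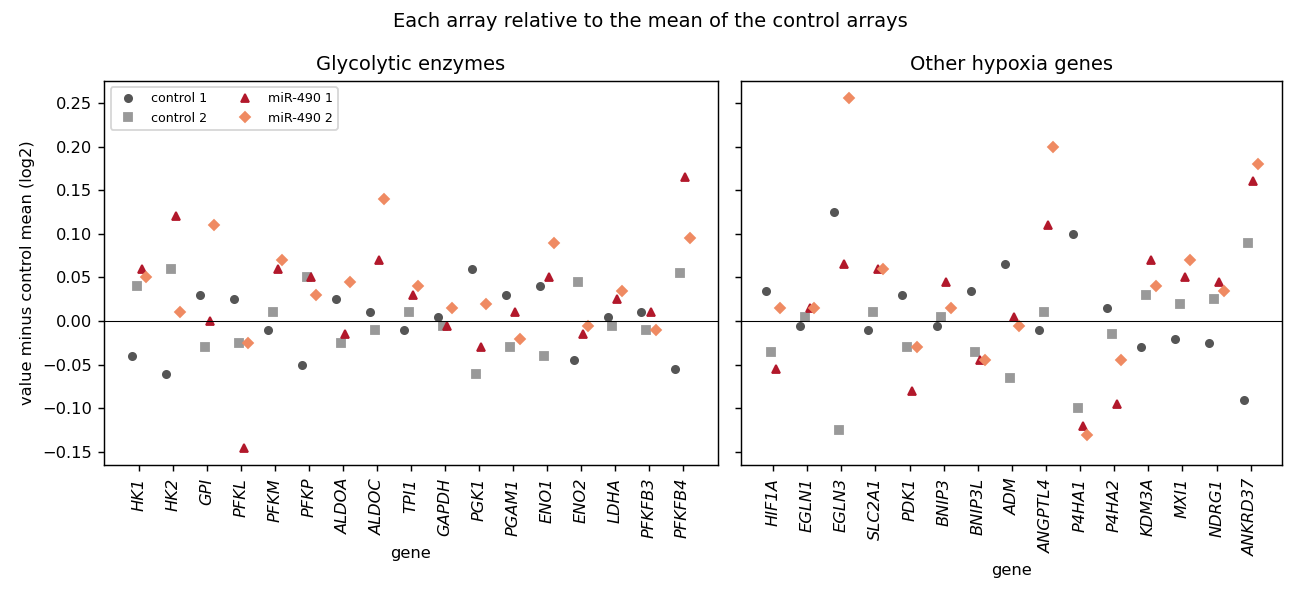
Each array's value minus the mean of the 2 control arrays (log2), per member, with control arrays in grey and miR-490 arrays in red and orange. Most points lie within 0.1 of 0, and the gap between replicates is often as wide as the gap between groups, as in HK2, EGLN3 and P4HA1.

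The enzymes of the upper part of glycolysis, which spend ATP to make triose phosphates, did not pass in either direction. HK1 and HK2 are hexokinases, which trap glucose in the cell. HK1 read 11.89 and 11.97 on the control arrays and 11.99 and 11.98 with miR-490 (log2), a difference of 0.055. HK2 read 10.23 and 10.35 against 10.41 and 10.30, so its groups overlapped. GPI, the isomerase of the next step, read 10.58 and 10.52 against 10.55 and 10.66, also overlapping. The phosphofructokinases commit sugar to the pathway, and their 3 genes, PFKL, PFKM and PFKP, encode the subunits named for liver, muscle and platelet. PFKL read 8.79 and 8.74 against 8.62 and 8.74, a difference of -0.085 (95% interval -0.27 to 0.097, limma). PFKM read 9.34 and 9.36 against 9.41 and 9.42, and PFKP 11.56 and 11.66 against 11.66 and 11.64. The groups of PFKM did not overlap, whereas those of PFKL and PFKP touched or overlapped. ALDOA and ALDOC are aldolases, and TPI1 interconverts the triose phosphates they release. ALDOA read 13.23 and 13.18 against 13.19 and 13.25. ALDOC read 10.97 and 10.95 against 11.03 and 11.10, both miR-490 arrays above both controls, with a difference of 0.105 ± 0.058 (SE, limma; adjusted p = 0.818). TPI1 read 12.72 and 12.74 against 12.76 and 12.77, a difference of 0.035.

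PFKFB3 and PFKFB4 make and break fructose 2,6-bisphosphate, the small molecule that activates phosphofructokinase, and both are known HIF targets. PFKFB4 had the largest difference among the 17 enzymes, at 10.98 and 11.09 on the control arrays and 11.20 and 11.13 with miR-490. Both miR-490 arrays lay above both controls, and the difference was 0.13 ± 0.068 (SE, limma), 1.09 times the control level, with a 95% interval of -0.053 to 0.31 and an adjusted p of 0.811. Without control replicate 1 it was 0.075, below the 0.115 of ALDOC, the 0.11 of ENO1 and the 0.085 of GPI. Without miR-490 replicate 1 it was 0.095, below the 0.14 of ALDOC and the 0.11 of GPI. PFKFB3 read 11.42 and 11.40 in both groups, a difference of 0 with a 95% interval of -0.14 to 0.14. Whether the difference of PFKFB4 departs from that of PFKFB3 was not tested.

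The lower part of glycolysis, which yields ATP and pyruvate, also did not pass in any member. GAPDH, which oxidises glyceraldehyde phosphate and often serves as a reference gene, read 13.89 and 13.88 against 13.88 and 13.90. PGK1, which makes ATP, read 13.61 and 13.49 against 13.52 and 13.57. PGAM1, the mutase, read 12.86 and 12.80 against 12.84 and 12.81. In these 3 genes the groups overlapped and the differences were 0.005, -0.005 and -0.005. ENO1, the common enolase, read 12.71 and 12.63 against 12.72 and 12.76, a difference of 0.070. ENO2, the enolase of neurons, read 10.27 and 10.36 against 10.30 and 10.31, with the miR-490 arrays between the controls. LDHA, which turns pyruvate into lactate, read 13.75 and 13.74 against 13.77 and 13.78. Its groups did not overlap, at a difference of 0.030 (95% interval -0.11 to 0.17). Over these 6 genes the differences ran from -0.010 to 0.070, and over the 11 upper-step and PFKFB genes from -0.085 to 0.13, which were not tested against each other.

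Among the other hypoxia genes, the oxygen sensors and their target factor did not pass. HIF1A, the oxygen-regulated subunit, is controlled mainly at the protein level, which arrays do not see. Its messenger RNA read 12.16 and 12.09 on the control arrays and 12.07 and 12.14 with miR-490, a difference of -0.020 (95% interval -0.19 to 0.15). EGLN1, the main HIF prolyl hydroxylase, read 9.25 and 9.26 against 9.27 and 9.27, a difference of 0.015. EGLN3, a hydroxylase gene that hypoxia itself induces in many cells, was the one dim member, at 2.86 and 2.61 against 2.80 and 2.99. It lay 2.35 below the array median, its groups overlapped, and its interval, -0.15 to 0.47, was the widest of all members.

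Genes of glucose entry, pyruvate use and mitophagy did not pass either. SLC2A1, the glucose carrier GLUT1, read 11.23 and 11.25 against 11.30 on both miR-490 arrays, a difference of 0.060 with no overlap (95% interval -0.082 to 0.20). PDK1, a pyruvate dehydrogenase kinase, read 9.33 and 9.27 against 9.22 and 9.27. BNIP3 and BNIP3L are outer-membrane receptors of mitophagy. BNIP3 read 12.66 and 12.67 against 12.71 and 12.68, and BNIP3L 11.73 and 11.66 against 11.65 on both arrays. The groups did not overlap in either, but the differences had opposite signs, 0.030 and -0.045.

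Of the secreted products, ANGPTL4 had the smallest p of all members. ANGPTL4 inhibits lipoprotein lipase, and it read 6.86 and 6.88 on the control arrays and 6.98 and 7.07 with miR-490. Both miR-490 arrays lay above both controls, with means of 6.87 ± 0.014 and 7.03 ± 0.064 (SD, n = 2), a difference of 0.155 ± 0.061 (SE) or 1.11 times the control level. The 95% interval was -0.0080 to 0.32, with an unadjusted p of 0.0580 and an adjusted p of 0.785 (limma). ADM, the vasodilator peptide adrenomedullin, read 12.01 and 11.88 against 11.95 and 11.94, a difference of 0.

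The collagen prolyl hydroxylase subunits lay on the lower side. P4HA1 and P4HA2 are the catalytic subunits that stabilise collagen by hydroxylating proline. P4HA1 read 11.03 and 10.83 against 10.81 and 10.80, where control replicate 1 stands above the other 3 arrays, a difference of -0.125 ± 0.085 (SE, limma; adjusted p = 0.845). Without control replicate 2 the difference was -0.225 and without control replicate 1 it was -0.025. P4HA2 read 12.71 and 12.68 against 12.60 and 12.65, a difference of -0.070 with no overlap (95% interval -0.22 to 0.080).

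The remaining 4 members act in the nucleus or as stress proteins. ANKRD37, an ankyrin-repeat protein and well-known HIF target, had the largest difference. It read 8.90 and 9.08 on the control arrays and 9.15 and 9.17 with miR-490, with means of 8.99 ± 0.13 and 9.16 ± 0.014 (SD, n = 2). The miR-490 arrays lay above both controls, but control replicate 2 was closer to them than to control replicate 1. The difference was 0.17 ± 0.080 (SE), 1.13 times the control level, with a 95% interval of -0.044 to 0.38 and an adjusted p of 0.785 (limma). It was 0.26 without control replicate 2. Without control replicate 1 it was 0.080, where dim EGLN3 (0.285), ANGPTL4 (0.145), ALDOC (0.115), ENO1 (0.11) and GPI (0.085) were larger. Without miR-490 replicate 1 it was 0.18, below ANGPTL4 (0.2) and EGLN3 (0.255). Without miR-490 replicate 2 it was 0.16, below PFKFB4 (0.165). With averaged probe sets it was 0.1275, below PFKFB4 (0.159) and ANGPTL4 (0.155). KDM3A, a histone demethylase, read 9.28 and 9.34 against 9.38 and 9.35, and MXI1, a MYC antagonist, 10.56 and 10.60 against 10.63 and 10.65. NDRG1, a stress protein, read 12.26 and 12.31 against 12.33 and 12.32. The groups of these 3 genes did not overlap, at differences of 0.055, 0.060 and 0.040.

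**Figure D3:**
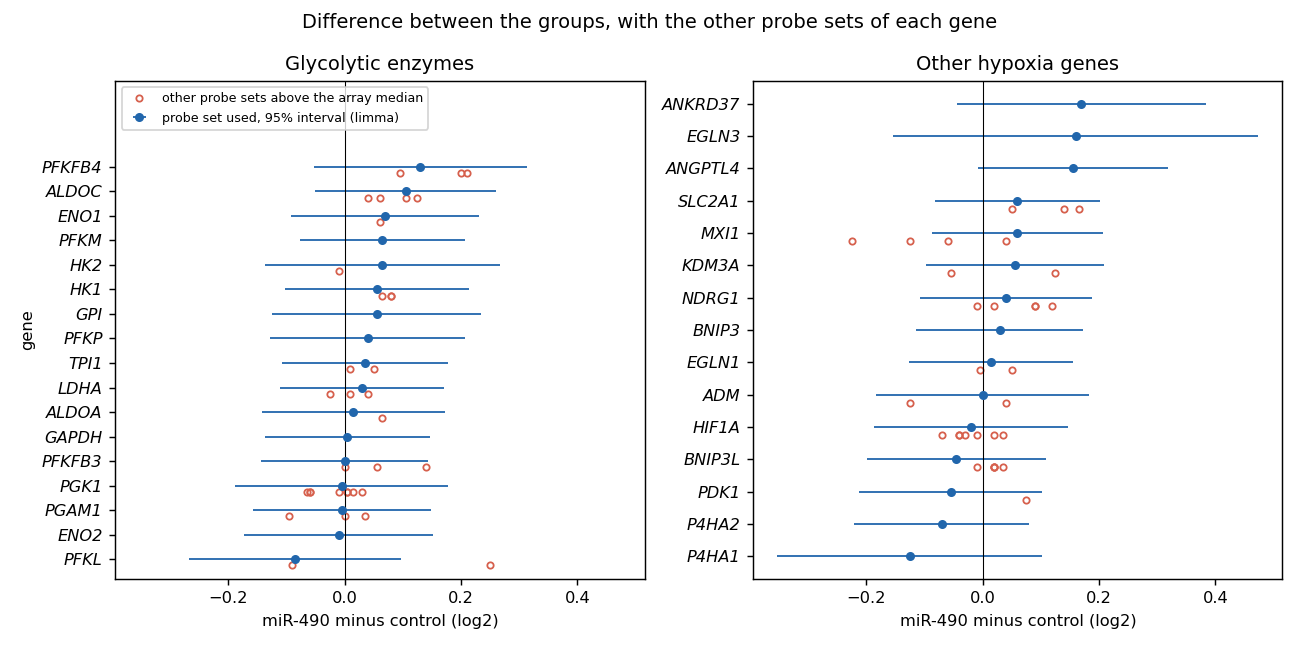
Difference of miR-490 minus control (log2) for each member, with the 95% interval from limma (filled points) and the differences of the gene's other probe sets above the array median (open points). Every interval crosses 0. The open points lie on both sides of 0 in MXI1, KDM3A, PFKL, BNIP3L, ADM, HIF1A, PGK1, PGAM1, LDHA, EGLN1 and NDRG1.

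The other probe sets of a gene measure the same RNA at other places and are not further replicates. The 32 members had 101 probe sets, so 69 were not used, 65 of them above the array median. Of these 65 sets, which belong to 21 genes, 42 were higher with miR-490, 21 lower and 2 equal, from -0.225 to 0.25. In 39 the sign was that of the set used, counting 1 set of PFKFB3 that was at 0 like the set used. In 21 it was the opposite, the rest being sets or genes at 0. All other sets were above 0 in HK1 (0.065 to 0.080), ALDOC (0.040 to 0.125), PFKFB4 (0.095 to 0.21), SLC2A1 (0.050 to 0.165) and TPI1 (0.010 to 0.050). MXI1 went the other way in 3 of its 4 other sets (-0.225 to 0.040) and BNIP3L in 4 of 5 (-0.010 to 0.035). HIF1A had 5 of 7 sets with the sign of the set used, from -0.070 to 0.035. ANGPTL4, P4HA1 and P4HA2 had no other set, and that of ANKRD37 was dim, at a mean of 2.63 with a difference of 0.085. Only 3 of the 65 sets, 1 each of EGLN1, KDM3A and PGAM1, differed by more than the larger gap between replicates. The KDM3A set read 8.28 and 8.30 against 8.43 and 8.40. The share of all unused sets that met this was not computed, so the count is not read as particular to the members.

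The differences of members with and without the ACGTG letters covered like ranges. The 13 members with a match had a median difference of 0.03 and a range from -0.125 to 0.17, and the 17 without had a median of 0.04 and a range from -0.085 to 0.16, with no test made. ANKRD37 and P4HA1, at the ends of the range, both have a match.

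Other listed genes of the same pathways also did not pass. Of 28 measured genes of glycolysis, pyruvate entry and related sugar metabolism, 20 lay above the array median and 0 passed in either direction, with 20 of 28 means higher and a median difference of 0.0275. The bright genes with the smallest p were PGM1, a phosphoglucomutase, BPGM, which makes 2,3-bisphosphoglycerate, PDK2, a pyruvate dehydrogenase kinase, and G6PC3, a glucose-6-phosphatase. PGM1 read 10.24 and 10.22 against 10.33 and 10.35, with no overlap and a difference of 0.11 (adjusted p = 0.795, limma). BPGM read 7.32 and 7.19 against 7.18 and 7.02, a difference of -0.155, while PDK2 and G6PC3 had differences of 0.080 and -0.070 with overlap. PKM, the pyruvate kinase that ends the pathway, read 12.44 and 12.10 against 12.16 and 12.33.

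Of 39 further genes of the hypoxia response, 33 lay above the array median and 0 passed, with 15 means higher, 24 lower and a median of -0.01. HMOX1, heme oxygenase, was the bright gene with the smallest p, at 11.41 and 11.35 against 11.19 and 11.21, a difference of -0.18 with no overlap (95% interval -0.33 to -0.028; adjusted p = 0.785, limma). LOXL2, a collagen crosslinker, had a difference of -0.105 and AK4, a mitochondrial adenylate kinase, one of 0.090. ARNT, the partner of HIF1A, read 5.93 and 6.10 against 6.32 and 6.05, which overlapped. VEGFA, the vessel growth factor and a classic HIF target, read 12.44 and 12.47 against 12.46 and 12.43. EPAS1, the other main HIF subunit, read 11.84 and 11.83 against 11.87 and 11.85. The median of the members' differences was thus above 0 and that of the further hypoxia genes below it, by amounts under 0.05, and neither list carries a test.

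**Figure D4:**
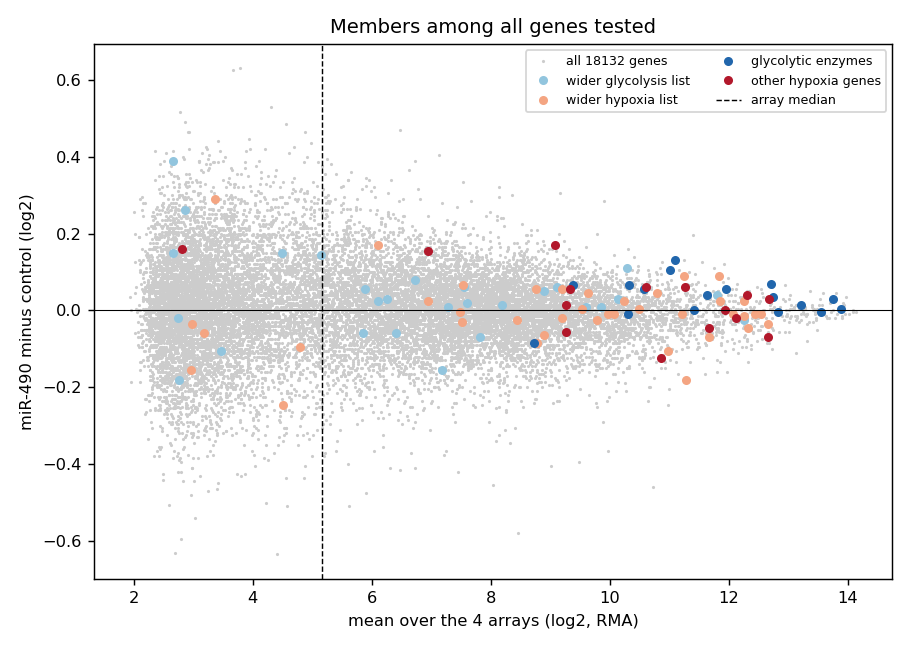
Difference of miR-490 minus control against the mean level (both log2) for all 18132 genes in grey, with the members in dark colours and the wider lists in light colours. The scatter narrows as genes get brighter, and the members lie within it.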

How the data were processed

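Per the labels' protocols, biotin-labelled cRNA from U87MG total RNA was hybridised to PrimeView arrays, 2 per group. The authors deposited log2 values for each probe set, which the submitters' processing notes credit to RMA. RMA's version and options are not given in the sources. RMA makes arrays alike, so a shift common to most transcripts cannot be seen, and values near either end of the scale can be compressed. Groups and replicate numbers came from the titles. The platform annotation gives 1 gene symbol for 44988 of the 49293 probe sets, several for 1832 and none for 2473; 44961 took current symbols through their Entrez IDs. Each of 18132 genes was represented by its brightest single-symbol set. Groups were compared in R 4.3.3 with limma 3.58.1 (lmFit, eBayes, no covariate, 2 residual and 2.45 prior degrees of freedom), two-sided, Benjamini-Hochberg over all genes, threshold 0.05, and the fit was tested on simulated data. With 2 arrays a group, an exact two-sided permutation test of a single gene cannot go below 0.333. The number of arrays limits the precision (median standard error 0.0725). Members and lists were chosen with earlier results of these data known. Named genes were all members and, of each wider list, the 4 genes above the array median with the smallest p; others named in the text were chosen after their values were seen. Promoter and microRNA sequences are RefSeq's. Alternatives were quantile normalization, median centring, an intensity trend (also with a robust prior), bright genes only, averaged probe sets, each replicate left out and the replicate number as a block. At the probe set used for each gene, same-numbered arrays did not deviate together (r = -0.0264 across genes). The unused sets, described at the end, did not enter this r. Figures used matplotlib 3.10.9.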

Additional observations from a re-analysis of the deposited data

How the results depend on the processing

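No gene passed the adjusted threshold under any alternative run, and the smallest adjusted p of a member was 0.600, without control replicate 2. Members at an unadjusted p under 0.05 (limma) numbered 3 of 32 with an intensity trend, with or without a robust prior (ALDOC, PFKFB4 and ANKRD37). Of all 18132 genes, 1096 were at that level without that prior and 1095 with it. Members at that level numbered 1 of 31, ANGPTL4, among bright genes only, of which 9064 were tested. With 1 array left out they numbered 0 to 2, the 2 being P4HA1 and ANKRD37 without control replicate 2; the lone array is then assumed to vary like the other group. All genes at that level numbered 641 among bright genes, where fewer were tested, and 741 to 1284 with 1 array left out. The median of the other hypoxia genes was 0.0456 after quantile normalization, 0.02 with centred arrays, 0.0225 among bright genes, 0.01 with averaged probe sets, and 0.015 to 0.045 with 1 array left out. That of the enzymes was 0.025 with centred arrays and 0.025 to 0.035 with 1 array left out. Over all genes the median was -0.005 with centred arrays, against 0.005 in the main fit, since centring moves every gene by the same amount. With 1 array left out the median over all genes was -0.01 to 0.02, so part of these moves is shared by all genes. The cause of the other moves was not tested. Of 351 alternatives of single members 20, in 12 members, changed sign, with 0 calls; the sign of GAPDH changed with centring, those of PGAM1, ENO2 and HIF1A with quantile normalization, and 5 with averaged probe sets: PFKL (-0.085 to 0.025), MXI1 (0.060 to -0.062), BNIP3 (0.030 to -0.060), PDK1 (-0.055 to 0.010) and BNIP3L (-0.045 to 0.0067). Under the replicate block, 892 genes and 0 members were at an unadjusted p under 0.05 and the medians were 0.035 and 0.03; the block changed no call. Dim EGLN3 lies near the floor of the arrays.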

Other observations

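The dimmer probe sets of several members separated the replicates far more than the groups. One set of PFKL read 7.75 and 6.63 on the control arrays and 7.10 and 7.78 on the miR-490 arrays (log2), while the set used for that gene read 8.79 and 8.74 against 8.62 and 8.74. One set of PFKFB4 read 7.45 and 6.50 against 7.03 and 7.34, and one of PFKFB3 read 5.77 and 5.20 against 5.43 and 5.65. In each, control replicate 1 and miR-490 replicate 2 were the higher array of their group.

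Of the 65 unused member sets above the array median, 11 (16.9%) had control arrays that differed by 0.4 or more, a limit chosen after the values were seen. They belong to NDRG1, PFKFB3, PFKFB4, PFKL and SLC2A1, and several sets share a gene. In all 11, control replicate 1 was the higher control and miR-490 replicate 2 the higher miR-490 array. Over all genes, 3.8% of 12525 unused sets above the median and 0.715% of 10211 used sets reached that difference. Of the 476 such unused sets over all genes, 409 had control replicate 1 higher, and in 352 of these miR-490 replicate 2 was the higher as well. No used member set above the median reached it.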
